A study of Mus musculus with 3 samples.

Results

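*Crabp1*-positive *Hmcn1* stromal cells are a small group of *Pdgfra*-positive cells in the inguinal fat pad of young mice. They were picked cell by cell from counts of unique molecular identifiers (UMIs, each standing for 1 captured RNA molecule). A cell entered the group with at least 1 *Pdgfra* UMI and at least 2 *Crabp1* UMIs, at most 2 *Pi16* UMIs and 1 *Gdf10* UMI, no *Epcam* and no *Pecam1* UMI, and at most 1 *Top2a* UMI. Of 31905 cells with at least 2000 UMIs and at most 10% mitochondrial UMIs, 23175 had a *Pdgfra* UMI, and 259 of these met every limit. They are called *Crabp1*-positive cells here, and the remaining 22916 are called other *Pdgfra*-positive cells. Because the same counts chose the cells, every difference between *Crabp1*-positive and other cells is a description and not a test, and the levels of the 7 genes in the rule are no finding.

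The study examined adipose fibrosis after loss of matrix Gla protein (*Mgp*), a secreted inhibitor of bone morphogenetic protein (BMP) signaling, by single-cell RNA sequencing of the stromal vascular fraction, the cells left after adipocytes are removed from digested fat. The libraries came from 4-week-old wild-type mice, from *Mgp*-KO mice with global *Mgp* deletion, and from *Pd*-KO mice, which carry *Mgp* flox/flox alleles and lose the gene where a *Pdgfra*-Cre transgene is active. Each was 1 library from a pool of male and female mice, sorted for live cells without the leukocyte surface protein CD45, and the labels place all 3 in batch 1. The wild-type library was the control for both knockouts, and which mouse a cell came from is not recorded. The libraries held 184102026, 93212243 and 83942865 UMIs in wild-type, *Mgp*-KO and *Pd*-KO over 32285 genes, of which the *Crabp1*-positive cells gave 1894390, 1180997 and 308696. With 1 library for a genotype no test between genotypes was possible, and the 95% intervals below cover counting error alone.

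*Crabp1* encodes a cytoplasmic protein that binds retinoic acid and limits how much of it reaches the nuclear receptors. *Hmcn1* encodes hemicentin-1, a large matrix protein that joins tissues at their basement membranes, and *Slit2* a secreted guidance cue read by Robo receptors. Periostin (*Postn*) is a matricellular protein of collagen-rich, remodeling tissue, and *Lrrc15* is a membrane protein known from activated fibroblasts. The inguinal pad lies under the skin and in female mice surrounds a mammary gland, and its *Pdgfra*-positive cells include progenitors rich in *Dpp4* and *Pi16*, preadipocytes rich in *Icam1*, and other stromal classes.

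*Crabp1* spans chr9:54764748-54773110 on the plus strand (mouse build GRCm38). The 250 bases before its start (chr9:54764498-54764747, plus strand, RefSeq, GRCm38.p6) are shown because *Crabp1* is the gene that defines the cells. Capitals mark GC-box letters, GGGCGG or its reverse complement CCGCCC.
Crabp1: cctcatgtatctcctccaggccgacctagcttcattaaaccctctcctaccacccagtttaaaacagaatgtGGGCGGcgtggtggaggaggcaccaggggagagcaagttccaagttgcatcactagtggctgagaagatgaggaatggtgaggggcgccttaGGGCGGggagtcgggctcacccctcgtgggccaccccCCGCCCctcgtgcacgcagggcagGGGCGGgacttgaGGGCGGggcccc
The window held 4 matches to GGGCGG and 1 to CCGCCC, and GGGCGG on either strand was found in 32.7% of 32851 RefSeq mouse windows of the same kind. The retinoic acid receptor half-site letters AGGTCA, or TGACCT, had 0 matches in it and occurred in 14.0% of the windows. The matches describe letters only.

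*Crabp1*-positive cells numbered 118 of 7702 *Pdgfra*-positive cells in wild-type, 114 of 9099 in *Mgp*-KO and 27 of 6374 in *Pd*-KO. Their share was 1.53% (95% exact binomial interval 1.27 to 1.83) in wild-type, 1.25% (1.03 to 1.5) in *Mgp*-KO and 0.424% (0.279 to 0.616) in *Pd*-KO. The *Pd*-KO share was the lowest, and its interval lay below both others, while the wild-type and *Mgp*-KO intervals overlapped. The median *Crabp1*-positive cell held 15110.5, 9848 and 11223 UMIs in wild-type, *Mgp*-KO and *Pd*-KO, beside 14421, 6869 and 9396 in other cells. After each cell was thinned to 4000 UMIs the shares were 1.44%, 0.935% and 0.354%. With the *Crabp1*, *Pi16* and *Gdf10* limits set per 10000 UMIs of a cell, wild-type and *Mgp*-KO stood at 1.23% and 1.24%, so the order of these libraries changed with the way depth was treated.

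The depth of *Crabp1* in a cell varied widely. The median was 5 UMIs in wild-type, 4 in *Mgp*-KO and 4 in *Pd*-KO, and the highest cells held 119, 100 and 21. Just inside the rule, at exactly 2 *Crabp1* UMIs, were 24, 30 and 8 cells, and just outside it, at exactly 1 UMI with all other limits met, were 149, 100 and 27. Endothelial cells (at least 2 *Pecam1* and 1 *Cdh5* UMIs, no *Pdgfra* UMI), which should lack the gene, had at least 2 *Crabp1* UMIs in 0.173%, 0.617% and 0% of 578, 162 and 528 cells, at median depths of 6982, 3657 and 4255 UMIs, and 0 of 528 cells allows a share of up to 0.568%. Other *Pdgfra*-positive cells did so in 1.46%, 0.301% and 0.173%. These other cells, 111 in wild-type, 27 in *Mgp*-KO and 11 in *Pd*-KO, were kept out by the remaining genes of the rule. In wild-type 54 of the 111 were over the *Pi16* limit and 44 over the *Gdf10* limit. Of the wild-type cells richest in *Crabp1*, with 8 or more UMIs, 58 of 104 were kept out in this way, beside 8 of 43 in *Mgp*-KO and 3 of 11 in *Pd*-KO, so the group holds less of the *Crabp1*-rich cells in wild-type.

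Most *Crabp1*-positive cells were female. Sex was read from each cell: female for *Xist* UMIs without any from 4 Y-linked genes (*Ddx3y*, *Uty*, *Kdm5d*, *Eif2s3y*), male for the opposite. None of these genes was in the rule, and cells of both kinds in a library came from the same pool of mice. In wild-type 82 *Crabp1*-positive cells were female and 16 male, so 83.7% (95% exact binomial interval 74.8 to 90.4) of called cells were female, against 47.2% (45.9 to 48.5) of other *Pdgfra*-positive cells. *Mgp*-KO had 103 female and 4 male cells, 96.3% (90.7 to 99.0) against 78.2% (77.2 to 79.2). *Pd*-KO had 25 and 2, 92.6% (75.7 to 99.1) against 43.0% (41.6 to 44.4). The female share was above that of other cells in each of the 3 libraries, and the intervals did not overlap.

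Set against the cells of 1 sex, the group made up 3.07% (2.45 to 3.80) of female *Pdgfra*-positive cells in wild-type, 1.87% (1.53 to 2.26) in *Mgp*-KO and 1.20% (0.780 to 1.77) in *Pd*-KO. Among male cells it made up 0.550% (0.315 to 0.892), 0.264% (0.0721 to 0.676) and 0.0735% (0.00890 to 0.265). The female share was thus the higher in each library, and the wild-type female interval lay above those of both knockouts. Barcodes with both *Xist* and Y-linked UMIs, which can be doublets or free RNA, were 9, 1 and 0 of the *Crabp1*-positive cells (7.63%, 0.877% and 0%, where 0 of 27 allows up to 11.1%), beside 8.48%, 2.43% and 4.29% of other cells.

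**Figure D1:**
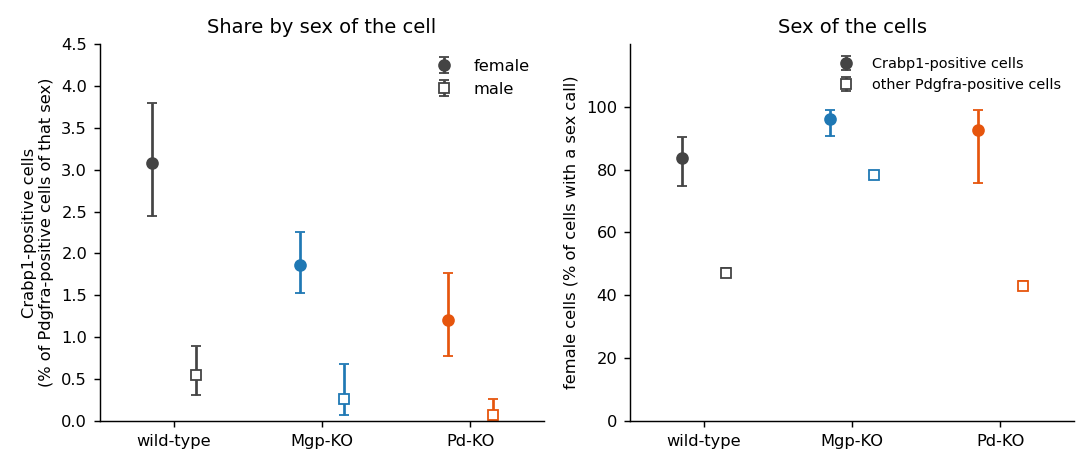
Left, *Crabp1*-positive cells as a percentage of female (filled circles) or male (open squares) *Pdgfra*-positive cells in each library. Right, female cells as a percentage of sex-called cells among *Crabp1*-positive (filled) and other *Pdgfra*-positive cells (open); bars are 95% exact binomial intervals, and *Crabp1*-positive cells lay at 83.7%, 96.3% and 92.6% female.

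Few male cells were available for levels within the group. *Crabp1* stood at 894 CPM (UMIs scaled to 1000000 over the summed UMIs of the cells) in female and 385 in male *Crabp1*-positive cells of wild-type, 907 and 675 in *Mgp*-KO, and 538 and 333 in *Pd*-KO. *Hmcn1* stood at 173 and 118 CPM in wild-type, 870 and 907 in *Mgp*-KO, and 984 and 1122 in *Pd*-KO. Other *Pdgfra*-positive cells held *Hmcn1* at 29.2 CPM in female and 6.1 in male cells of wild-type, 156 and 21.5 in *Mgp*-KO, and 53.2 and 21.9 in *Pd*-KO. The male cells that met the rule thus carried *Hmcn1* far above the other male cells of their library.

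The other 4 genes of the group's name were read next. They were chosen with earlier results of these data known, so their levels describe the group and are no check of it. *Hmcn1* (chr1:150562524-150993435, minus strand) stood at 162 CPM in *Crabp1*-positive and 15.8 CPM in other *Pdgfra*-positive cells of wild-type, 824 and 106 in *Mgp*-KO, and 995 and 31.6 in *Pd*-KO. The log2 ratios of *Crabp1*-positive over other cells were 3.36 (3.18 to 3.54), 2.97 (2.87 to 3.06) and 4.98 (4.80 to 5.15). *Hmcn1* was therefore higher in these cells in each library, although its level was much lower in wild-type than in both knockouts. *Slit2* (chr5:47983138-48307733, plus strand) stood at 142 and 15 CPM, 1057 and 138 CPM, and 1221 and 72.6 CPM in the same order, with log2 ratios of 3.25, 2.94 and 4.07. *Lrrc15* (chr16:30269302-30283256, minus strand) stood at 118 and 10.3 CPM, 157 and 16.5 CPM, and 198 and 6.96 CPM, with log2 ratios of 3.52, 3.25 and 4.84. Both were far more abundant in *Crabp1*-positive cells of every library. *Postn* (chr3:54361109-54391037, plus strand) was abundant in all *Pdgfra*-positive cells, at 4896 and 2846 CPM, 4990 and 2465 CPM, and 5815 and 2774 CPM, and its log2 ratios of 0.78, 1.02 and 1.07 made it the weakest marker of the 5 and the one that did not reach 1 in every library.

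The share of cells with the transcript was read next. At least 1 *Hmcn1* UMI was found in 65.3%, 88.6% and 96.3% of *Crabp1*-positive cells in wild-type, *Mgp*-KO and *Pd*-KO, beside 12.8%, 8.02% and 9.66% of endothelial cells. After thinning to 4000 UMIs, among the 115, 111 and 26 *Crabp1*-positive cells deep enough, *Hmcn1* was detected in 40.9%, 78.4% and 96.2%, and in 4.33%, 13.4% and 5.68% of other *Pdgfra*-positive cells. *Lrrc15* was found in 58.5%, 57.9% and 70.4% of *Crabp1*-positive cells without thinning and in 1.38%, 0.617% and 0.189% of endothelial cells.

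*Hmcn1* and *Lrrc15* did not rise steadily with the amount of *Crabp1*. Among cells that met all other limits, wild-type *Hmcn1* stood at 16.9 CPM in cells with no *Crabp1* UMI, 60.5 with 1, 169 with 2, 127 with 3 to 7 and 191 with 8 or more. In *Mgp*-KO the same classes stood at 190, 617, 950, 644 and 964 CPM, and in *Pd*-KO at 71.5, 580, 1802, 877 and 473 CPM. In each library the largest fold step of *Hmcn1* lay between cells with no *Crabp1* UMI and cells with 1, and in *Pd*-KO the cells with 8 or more stood below those with 1 or 2. *Lrrc15* stood at 15.6, 47.4, 138, 103 and 123 CPM in wild-type, 29.5, 119, 162, 115 and 206 in *Mgp*-KO, and 18.4, 131, 165, 237 and 165 in *Pd*-KO, so its highest class differed between the libraries. *Nrgn*, which encodes the calmodulin-binding protein neurogranin, increased from class to class in wild-type, at 8.57, 23.7, 77.5, 117 and 203 CPM, and in *Mgp*-KO, at 13.1, 121, 414, 437 and 657 CPM. In *Pd*-KO it stood at 3.81, 53.1, 25.4, 280 and 396 CPM, lower with 2 *Crabp1* UMIs than with 1. Only 8 *Pd*-KO cells had 8 or more *Crabp1* UMIs.

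**Figure D2:**
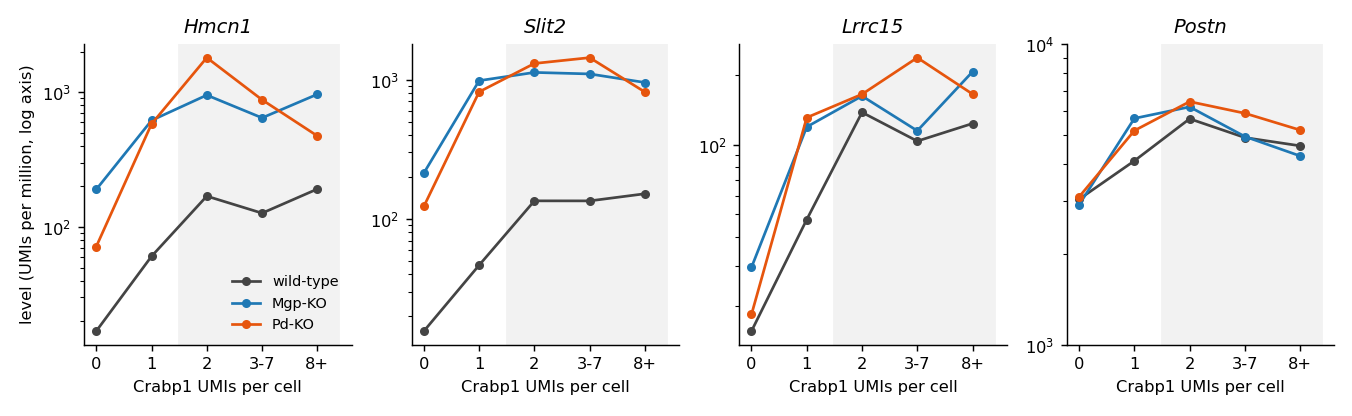
Levels of *Hmcn1*, *Slit2*, *Lrrc15* and *Postn* (CPM, log axis) in cells grouped by their *Crabp1* UMIs, 1 line for each library, among cells that met all other limits of the rule; shading marks the classes inside the rule. Wild-type *Hmcn1* went from 16.9 CPM at 0 *Crabp1* UMIs to 169 CPM at 2 and 191 CPM at 8 or more.

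To see where the cells fell without the genes of the rule, the *Pdgfra*-positive cells of each library were clustered alone, leaving out the rule's genes, *Mgp*, *Xist* and the Y-linked genes. A single cluster held 101 of 118 *Crabp1*-positive cells (85.6%) in wild-type, 97 of 114 (85.1%) in *Mgp*-KO and 26 of 27 (96.3%) in *Pd*-KO. Most of the group thus fell together on transcripts that the rule did not use. These clusters held 543, 504 and 177 cells, of which *Crabp1*-positive cells were 18.6%, 19.2% and 14.7%. The genes that led them included *Crabp1*, *Kera*, *Lrrc15*, *Hmcn1*, *Tnc* and *Map2* in wild-type, *Stra6*, *Nrgn*, *Kif26b*, *Hs3st6*, *Crabp1* and *Scube1* in *Mgp*-KO, and *Crabp1*, *St6galnac3*, *Scube1*, *Map2* and *Kera* in *Pd*-KO. A further 12 *Mgp*-KO cells (10.5%) lay in a cluster of 950 cells. Its leading genes included *Dgkb*, *Hgf*, *Robo2*, *Hc*, *Hmcn1*, *Fgf10* and *Col18a1*.

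Most cells of these clusters were not *Crabp1*-positive by the rule. Of the remaining 442, 407 and 151 cells, 299, 339 and 127 had no *Crabp1* UMI, 72, 53 and 14 had 1, and 71, 15 and 10 had 2 or more but missed another limit. They nevertheless carried *Hmcn1* at 167, 781 and 785 CPM, against 6.08, 65.9 and 12.7 CPM in all other clusters. *Lrrc15* stood at 116, 144 and 147 CPM against 3.57, 8.96 and 3.45. Their *Postn*, at 6293, 6248 and 6171 CPM, was above that of the *Crabp1*-positive cells. They were also mostly female, in 87.8% (84.0 to 91.0), 96.1% (93.5 to 97.9) and 77.0% (69.0 to 83.8) of called cells, against 44.3%, 77.2% and 42.0% in the other clusters. The group was thus part of a larger *Hmcn1*-rich, mostly female cluster in each library.

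**Figure D3:**
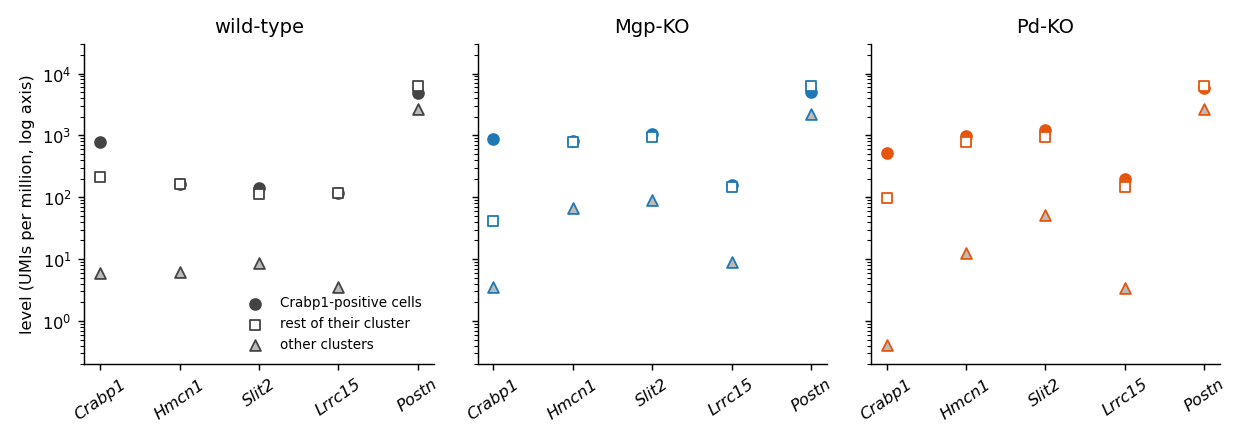
Levels (CPM, log axis) of the 5 marker genes in *Crabp1*-positive cells (filled circles), in the rest of the cluster that held most of them (open squares) and in all other clusters (triangles), 1 panel for each library. For *Hmcn1* the rest of the cluster stood at 167, 781 and 785 CPM, beside 162, 824 and 995 CPM in *Crabp1*-positive cells.

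Across the transcriptome, a gene was called higher or lower when the log2 ratio of *Crabp1*-positive over other *Pdgfra*-positive cells was at least 1 in size, in the same direction, in all 3 libraries. Among 11781 genes with enough UMIs, 592 (5.03%) were higher and 694 (5.89%) lower. With genes at 0 UMIs in *Crabp1*-positive cells set to the 3 UMIs that such a count allows, 480 of the latter were still lower, and the other calls rest on the 0.5 UMI added to each count. Genes of that kind are marked where they are named below. The median log2 ratio of all tested genes was 0.15 in wild-type, 0.26 in *Mgp*-KO and 0.29 in *Pd*-KO, and with this median set to 0 in each library 418 genes were higher and 855 lower. Within female cells alone, which are fewer, 386 genes were higher.

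The genes with the highest ratios over other *Pdgfra*-positive cells encode a mixed set of matrix, cell surface and cytoskeletal proteins. Several (*Hs3st6*, *Map2*, *Scube1*, *Nrgn*, *Kif26b*, *St6galnac3* and *Fhod3*) were also leading genes of the larger cluster around the group in some libraries. Their levels in the rest of that cluster were not read, so whether they are particular to the group was not tested. *Scube1*, a secreted protein with EGF-like repeats, stood at 36.4 CPM in *Crabp1*-positive and 1.49 CPM in other cells of wild-type, 83.0 and 3.47 in *Mgp*-KO, and 159 and 1.55 in *Pd*-KO (log2 ratios 4.62, 4.59 and 6.69). *Hs3st6*, an enzyme that sulfates heparan sulfate chains, stood at 137 and 6.77, 173 and 6.49, and 136 and 1.68 CPM (4.34, 4.74 and 6.35). *Col7a1*, the collagen of the anchoring fibrils that tie skin to its basement membrane, stood at 45.4 and 2.55, 135 and 5.02, and 120 and 2.13 CPM (4.16, 4.75 and 5.83). Each of the 3 genes was more than 10 times as abundant in *Crabp1*-positive cells of every library. *Col13a1*, a transmembrane collagen, stood at 81.8 and 5.48, 135 and 9.47, and 168 and 7.01 CPM (3.90, 3.83 and 4.6). F2r, the thrombin receptor PAR1, stood at 111 and 7.33, 160 and 9.08, and 168 and 2.63 CPM (3.93, 4.14 and 6.01). *Map2*, a microtubule-binding protein best known from neurons, stood at 117 and 8.24, 356 and 22.8, and 395 and 8.53 CPM (3.83, 3.97 and 5.54).

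*Nrgn* also belonged to the 15 highest genes, at 147 and 10.6 CPM in wild-type, 506 and 10.5 in *Mgp*-KO and 249 and 2.39 in *Pd*-KO (3.80, 5.59 and 6.71). *St6galnac3*, a sialyltransferase, stood at 49.1 and 2.61, 760 and 46.6, and 946 and 15.7 CPM (4.24, 4.03 and 5.91). The others were *Styk1* and *Shc4*, a receptor-like kinase and a signaling adaptor, *Kif26b*, a kinesin, *Rerg*, a Ras-related protein, *Fhod3*, a formin, and *Adgrl3*, a latrophilin adhesion receptor. Their log2 ratios lay between 3.84 and 6.42 in the 3 libraries.

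**Figure D4:**
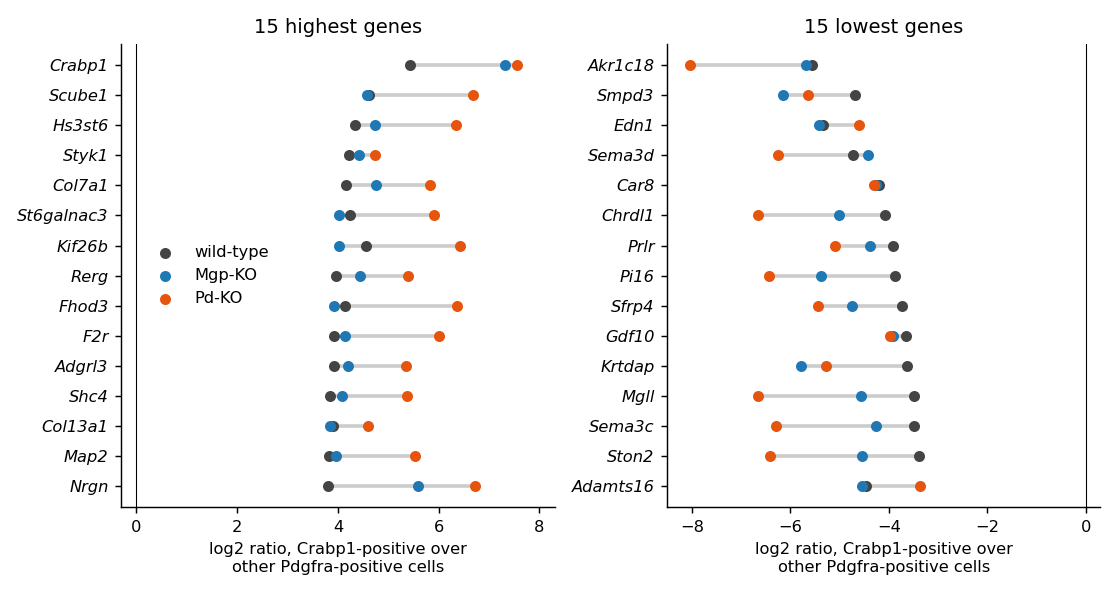
Log2 ratios of *Crabp1*-positive over other *Pdgfra*-positive cells for the 15 highest and 15 lowest genes by rank, 1 point for each library, with 0.5 UMI added so that genes at 0 UMIs can be drawn (their points are not bounds). *Crabp1*, *Pi16* and *Gdf10* were part of the rule; apart from them the highest gene, *Scube1*, lay at 4.62, 4.59 and 6.69.

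The lowest genes included hormone-related, lipid and signaling genes. *Akr1c18*, an enzyme that breaks down progesterone, stood at 2.64 CPM in *Crabp1*-positive and 138 CPM in other cells of wild-type and at 5.93 and 324 CPM in *Mgp*-KO. In *Pd*-KO it had no UMI in *Crabp1*-positive cells, where 3 UMIs would be 9.72 CPM, and 424 CPM in others. *Smpd3*, a sphingomyelinase, stood at 7.92 and 211 CPM in wild-type, 3.39 and 271 in *Mgp*-KO and 3.24 and 242 in *Pd*-KO. *Mgll*, a lipase of monoacylglycerols, stood at 4.75 and 56.6 CPM, 2.54 and 69.9 CPM, and at no UMI and 163 CPM. The group was thus poor in these transcripts in every library. *Prlr*, the prolactin receptor, stood at 4.22 and 67.9 CPM, 1.69 and 44.4 CPM, and at no UMI and 55.1 CPM. *Sfrp4*, a secreted Wnt antagonist, stood at 8.45 and 115, 8.47 and 240, and 6.48 and 350 CPM (log2 ratios −3.73, −4.75 and −5.43). *Sema3c*, a semaphorin, stood at 16.4 and 186, 15.2 and 299, and 9.72 and 894 CPM (−3.48, −4.25 and −6.30). The others, apart from *Pi16* and *Gdf10*, were *Edn1*, *Sema3d*, *Car8*, *Chrdl1*, *Krtdap*, *Ston2* and *Adamts16*, for which at most 9 UMIs were seen in the *Crabp1*-positive cells of any library.

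Lists of genes with shared roles were read next, starting with the matrix. Each count stands beside the shares of all tested genes, 5.03% higher and 5.89% lower. *Hmcn1*, *Slit2* and *Lrrc15*, genes of the group's name, are counted again in lists that hold them. Of 19 fibrillar and associated collagens tested, 5 were higher (*Col7a1*, *Col11a1*, *Col12a1*, *Col23a1*, *Col27a1*) and 3 lower (*Col6a6*, and *Col6a5* and *Col8a1* by the added 0.5 UMI). *Col11a1*, a minor fibrillar collagen of cartilage and remodeling tissue, stood at 50.7 and 3.88 CPM in wild-type, 61.0 and 3.04 in *Mgp*-KO and 61.5 and 2.18 in *Pd*-KO (3.71, 4.33 and 4.85). The most abundant collagens went the other way without reaching the threshold in every library. *Col3a1* had log2 ratios of −0.77, −0.91 and −1.39 and *Col1a1* of −0.90, −0.79 and −1.47. *Lum*, the collagen-binding proteoglycan lumican, was named after its values were seen, with log2 ratios of 1.06, 1.12 and 1.24.

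Basement membrane genes were mixed, with 4 of 20 higher (*Hmcn1*, *Col18a1*, *Frem1*, *Agrn*) and 3 lower (*Lama4*, *Nid1*, *Col4a5*). *Frem1*, which anchors embryonic epidermis to the dermis, stood at 124 and 15.9, 277 and 37.9, and 486 and 29.8 CPM (2.96, 2.87 and 4.03). *Col18a1*, a collagen of basement membrane zones and the source of endostatin, stood at 367 and 162, 421 and 117, and 680 and 103 CPM (1.18, 1.85 and 2.72). The higher genes were thus linkers and a heparan sulfate collagen, and the lower ones a laminin chain, a nidogen and a collagen IV chain. Of 23 matricellular genes 2 were higher (*Tnc*, *Ccn4*) and 6 lower (*Tnxb*, *Thbs3*, *Ccn3*, *Efemp1*, *Tgfbi*, and *Ccn2* by the added 0.5 UMI).

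Activated fibroblast genes had 8 higher and 1 lower of 18, with median log2 ratios of 0.71, 1.15 and 0.99 (1.36 in *Pd*-KO with genes at 0 set to their limit). *Acta2*, smooth muscle actin, stood at 763 and 230 CPM in wild-type, 634 and 51.9 in *Mgp*-KO and 554 and 37.1 in *Pd*-KO (1.73, 3.61 and 3.91). *Tagln*, an actin-binding protein of contractile cells, stood at 367 and 178, 192 and 34.5, and 282 and 27.5 CPM (1.04, 2.48 and 3.36). *Tnc*, the matricellular protein tenascin-C, stood at 75 and 12.3, 173 and 18.9, and 87.5 and 4.21 CPM (2.61, 3.2 and 4.4). *Acta2*, *Tagln* and *Tnc* thus stood above other cells in every library. *Pdgfrb*, the beta receptor for PDGF, stood at 299 and 87.7, 331 and 70.5, and 392 and 78.3 CPM (1.77, 2.23 and 2.33). *Ddah1*, *Lrrc15*, *Col11a1* and *Col12a1* were the remaining higher genes. *Fap*, a surface protease of activated fibroblasts, was the exception, at 62.3 and 148, 50.8 and 185, and 68.0 and 303 CPM. *Acta2* and *Tagln* are also markers of mural cells: of 9 such markers tested, 2 were higher (these) and 2 lower (*Myh11*, the smooth muscle myosin heavy chain, and *Abcc9*). The 10 mural genes summed to 1236, 844 and 871 CPM in *Crabp1*-positive and 581, 184 and 221 CPM in other cells, with *Acta2* the most abundant, and *Myh11* stood at 22.2 CPM in wild-type *Crabp1*-positive cells against 47.4. The part of mural RNA in *Acta2* and *Tagln* was not tested.

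*Slit2* was joined by its receptors. Of 9 genes of the Slit and Robo list, 4 were higher (*Slit2*, *Robo1*, *Robo2*, *Srgap3*) and 1 lower (*Flrt2*). *Robo1* stood at 58.1 and 11.8 CPM in wild-type, 833 and 87.9 in *Mgp*-KO and 752 and 84.8 in *Pd*-KO (2.30, 3.25 and 3.15). *Robo2* stood at 16.4 and 2.79, 197 and 24.0, and 509 and 14.8 CPM (2.57, 3.04 and 5.11). The ligand, both receptors and *Srgap3*, a GTPase-activating partner of Robo, were therefore higher in the same cells. Among 27 other guidance genes 4 were higher (*Sema3g*, *Sema5a*, *Unc5b*, *Epha7*) and 5 lower (*Sema3b*, *Sema3c*, *Sema3d*, *Ntn1*, *Ntn4*), so semaphorins were found on both sides.

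Of 15 retinoid genes tested, *Crabp1* of the rule included, 4 were lower. These were *Rbp4*, the circulating retinol carrier, *Dhrs9* (by the added 0.5 UMI), and the retinoic acid-forming enzymes *Aldh1a1* and *Aldh1a3*. *Aldh1a1* stood at 19.5 and 46.2 CPM in wild-type, 11 and 156 in *Mgp*-KO, and 3.24 and 136 in *Pd*-KO. *Rdh10*, which starts retinoic acid synthesis from retinol, missed the threshold in *Pd*-KO alone (1.45, 1.61 and 0.96). The receptor *Rara* had log2 ratios of 0.74, 0.46 and 1.49 in wild-type, *Mgp*-KO and *Pd*-KO, and *Rarg* of 0.47, −0.32 and −0.54.

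Fibroblast growth factor (FGF) genes split by role, with 6 higher and 4 lower of 15. Lower were the ligands *Fgf2*, *Fgf7*, *Fgf10* and *Fgf18*. *Fgf10*, for instance, stood at 36.4 and 135 CPM in wild-type, 27.9 and 115 in *Mgp*-KO and 9.72 and 140 in *Pd*-KO. Higher were the feedback inhibitors *Spry1*, *Spry4* and *Dusp6*, the transcription factors *Etv4* and *Etv5*, and *Fgf13*, which stays inside the cell. *Dusp6*, a phosphatase that shuts off ERK, stood at 91.9 and 13.9, 91.4 and 11.8, and 104 and 7.19 CPM (2.73, 2.96 and 3.87). *Etv4* stood at 41.7 and 3.04, 52.5 and 4.27, and 25.9 and 1.5 CPM (3.78, 3.63 and 4.19), the last from 8 UMIs. *Spry1* stood at 145 and 35.6, 149 and 30.6, and 188 and 28.5 CPM (2.02, 2.29 and 2.73). Genes that receptor tyrosine kinase signaling is known to induce were thus higher where FGF ligand transcripts were lower. The list's median was −0.24, 0.77 and 0.47.

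Wnt genes were divided evenly, with 6 of 24 higher and 6 lower. *Rspo1*, a secreted enhancer of Wnt signaling, stood at 48.6 and 3.70 CPM in wild-type, 56.7 and 3.73 in *Mgp*-KO and 38.9 and 2.88 in *Pd*-KO (3.72, 3.93 and 3.81). *Axin2*, a feedback target of the pathway, stood at 16.4 and 3.55, 24.6 and 7.57, and 29.2 and 8.67 CPM (2.23, 1.72 and 1.83). The inhibitors *Nkd1* and *Nkd2*, also known as Wnt targets, and the secreted *Sfrp1* and *Dkk3* were the other higher genes. *Sfrp2*, *Sfrp4* and *Dkk2* were lower, as were *Rspo2*, *Rspo3* and *Wnt10b* by the added 0.5 UMI. *Sfrp2* stood at 126 and 381, 131 and 602, and 90.7 and 728 CPM.

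In the BMP list, 2 of 29 were higher and 8 lower, beside 5.03% and 5.89% of all tested genes. The lower genes were the ligands *Bmp3*, *Bmp6* and *Gdf10* (a gene of the rule), the extracellular modulators *Bmper*, *Chrdl1* and *Fst*, and the receptor-level genes *Acvr2a* and, by the added 0.5 UMI, *Bambi*. *Fst*, follistatin, stood at 61.2 and 296 CPM in wild-type, 49.96 and 333 in *Mgp*-KO and 6.48 and 258 in *Pd*-KO. *Id1*, a direct BMP target, was higher at 130 and 61.7, 97.4 and 47.9, and 35.6 and 17.4 CPM (1.08, 1.03 and 1.10), as was *Fstl3*. Several secreted regulators of BMP ligands were thus scarce in these cells. The count of higher genes was near the share of all tested genes, so *Id1* is described as a single gene. Transforming growth factor beta (TGFb) genes had 1 higher (*Smad2*) and 1 lower (*Tgfb2*) of 13, counts near the shares of all tested genes.

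Among 14 genes of the insulin-like growth factor (IGF) axis, *Igfbp2* was the single higher gene, at 50.7 and 4.05 CPM in wild-type, 97.4 and 3.57 in *Mgp*-KO and 123 and 1.02 in *Pd*-KO (3.65, 4.77 and 6.93). *Igf2*, *Igfbp3*, *Igfbp5* and *Igfbp6* were lower, so IGF binding proteins were found on both sides. Of 11 hormone receptor genes 1 was higher (*Nr3c2*, the mineralocorticoid receptor) and 4 lower. *Esr1*, the estrogen receptor, stood at 20.1 and 71.2, 65.2 and 247, and 55.1 and 435 CPM (−1.81, −1.91 and −2.94). *Pgr* and *Prlr*, the receptors for progesterone and prolactin, were lower too, as was *Oxtr*, that for oxytocin, by the added 0.5 UMI.

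Transcription factors gave 6 higher and 10 lower of 38. *Twist1*, a regulator of mesenchyme, stood at 582 and 181 CPM in wild-type, 697 and 210 in *Mgp*-KO and 405 and 174 in *Pd*-KO (1.69, 1.73 and 1.23). *Runx2*, the regulator of bone formation, stood at 70.7 and 8.19, 269 and 23.1, and 311 and 10.5 CPM (3.12, 3.55 and 4.90). *Alx4*, a homeobox factor of limb and skull mesenchyme, stood at 48.6 and 6.70, 72.8 and 8.89, and 113 and 3.56 CPM (2.86, 3.04 and 5.01). *Prrx2*, *Tbx3* and *Tbx18*, the last with log2 ratios of 1.72, 1.15 and 1.93, completed the higher set. The lower ones included *Sox5*, *Prrx1*, *Meox2*, *Foxp1*, *Ebf2*, *Ebf3*, *Klf4* and *En1*, and *Sox9* by the added 0.5 UMI. *Ebf2*, a factor of adipocyte precursors, stood at 26.9 and 112, 64.4 and 361, and 123 and 739 CPM. None of 17 *Hox* genes, which record position along the body, reached the threshold in either direction.

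Markers of adipocyte precursors were read by class. Of 14 *Dpp4* progenitor markers tested (*Pi16*, a gene of the rule, among them) none was higher and 10 were lower, with medians of −2.97, −4.16 and −4.94 (−2.97, −3.89 and −4.06 with genes at 0 set to their limit). *Dpp4* stood at 10.6 and 106, 3.39 and 267, and 6.48 and 485 CPM, from 20, 4 and 2 UMIs in *Crabp1*-positive cells. None of 12 preadipocyte and 13 adipocyte genes was higher, and 4 (*Bmper*, *Cd36*, *Fabp4*, *Ggt5*) and 5 were lower, of the latter *Adipoq* and *Plin4* by the added 0.5 UMI. None of 8 *Areg* markers, the *Gdf10*-rich class known to restrain adipogenesis, was higher, and 6 were lower, *Gdf10* of the rule among them. By contrast 6 of 7 markers of stromal cells rich in *Col18a1* were higher, with medians of 2.20, 2.81 and 3.69. *Sdc1*, the proteoglycan syndecan-1, stood at 408 and 70.3, 395 and 56.3, and 360 and 26.7 CPM, and *Nxn*, nucleoredoxin, at 200 and 43.5, 675 and 89.2, and 975 and 75.7 CPM. The study gives *Col18a1*, *Sdc1* and *Nxn* to both of the stromal clusters it calls ASC5 and ASC7. It gives *Cdh11* and *Fgf10* to ASC5, and *Slit2* and *Frem1* to ASC7. *Fgf10* was lower, while *Cdh11*, *Slit2* and *Frem1* were higher.

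Markers of tissues next to the fat were also read. Of 14 dermal genes 4 were higher (*Twist1*, *Vcan*, *Lrig1*, and *Crabp1* itself) and 5 lower (*Dkk2*, *Bmp3*, *Dpt*, and *Rspo2* and *Rspo3* by the added 0.5 UMI), and *Corin* and *Sox2*, which mark dermal papilla, had no UMI in *Crabp1*-positive cells of any library and had too few UMIs in at least 1 library, other cells included, to be tested. *Kera*, a proteoglycan of cornea and tendon, was the single higher tendon gene of 6, at 76.0 and 5.32, 68.6 and 5.10, and 90.7 and 1.90 CPM (3.84, 3.76 and 5.60), while *Prg4* had no UMI in the group and was lower by the added 0.5 UMI. *Scx*, *Mkx*, *Comp* and *Chad* had no UMI there either and were left untested for the same reason. Of 6 nerve fibroblast genes *Etv1* and *Abca9* were higher and *Sox9* lower, the latter by the added 0.5 UMI.

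Markers of other cell types were scarce. *Pecam1* (limited to 0 by the rule) and *Tie1* had no UMI, and 5 of 6 endothelial markers tested were lower, *Kdr* and *Fabp4* also with genes at 0 set to their limit. The endothelial list summed to 912, 148 and 29.2 CPM, of which *Fabp4*, shared with adipocytes, gave 883, 133 and 29.2. The 4 epithelial markers tested (*Epcam*, limited by the rule, *Krt8*, *Krt18* and *Wfdc2*) were lower by the added 0.5 UMI alone: all had no UMI in *Pd*-KO, where the median was −2.44, and 0.14 at the limit of 3 UMIs. *Krt14*, *Krt5* and *Krt17* had no UMI in any library, and the list summed to 20.6, 2.54 and 0 CPM against 230, 103 and 40.0 in other cells. Leukocyte markers summed to 6.33, 2.54 and 6.48 CPM, near the 6.78, 1.94 and 5.33 CPM of other cells, with *Ptprc*, *Tyrobp* and *Cd52* at no UMI. *Sox10* of Schwann cells had none, while *Mbp* of the same list was lower. Dissociation stress genes had none higher and 2 of 17 lower (*Atf3*, *Zfp36*). None of 7 cycling genes, *Top2a* of the rule among them, and none of 6 nuclear long RNAs was higher or lower in every library.

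The nearest of 4 other stromal classes was sought with gates of the same kind: at least 3 *Pi16* UMIs, or at least 2 of *Gdf10*, *Icam1* or *Fgf10*, each with at most 1 *Crabp1* UMI and limits on the other gates. Over genes with enough UMIs in each comparison, the median size of the log2 ratio was 0.589 against *Pi16*-gated, 0.465 against *Gdf10*-gated, 0.499 against *Icam1*-gated and 0.426 against *Fgf10*-gated cells. The 4 values rest on 9813, 6489, 1638 and 7189 genes. Higher genes in every library were 665 (6.78%), 260 (4.01%), 105 (6.41%) and 248 (3.45%), and lower ones 647 (6.59%), 389 (5.99%), 141 (8.61%) and 318 (4.42%). Against *Fgf10*-gated cells (1141, 861 and 715 cells) *Col18a1* had log2 ratios of 0.33, 0.45 and 1.00, against 2.46, 3.88 and 4.67 over *Pi16*-gated cells. *Hmcn1* was far above *Fgf10*-gated cells too (4.41, 2.61 and 4.19), as were *Slit2* (3.95, 2.86 and 4.10), *Frem1* (2.96, 2.30 and 2.34) and *Runx2* (2.89, 2.78 and 3.53). *Col18a1* was therefore shared with *Fgf10*-gated cells in wild-type and *Mgp*-KO, while *Hmcn1* and *Slit2* stood above those cells in every library. In *Mgp*-KO, *Hmcn1* was nevertheless a leading gene of the cluster of 950 cells that *Fgf10* and *Col18a1* also led. *Fgf10*-gated cells were female in 51.6%, 76.1% and 55.8% of called cells, short of the 83.7%, 96.3% and 92.6% of *Crabp1*-positive cells.

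Genotype was read within the *Crabp1*-positive cells, starting with the deleted gene. *Mgp* stood at 214 CPM in wild-type *Crabp1*-positive cells (406 UMIs) and had no UMI in those of *Mgp*-KO or *Pd*-KO, where 3 UMIs would be 2.54 and 9.72 CPM. Other *Pdgfra*-positive cells stood at 478, 0.711 and 1.93 CPM. Free RNA, measured in barcodes of 10 to 100 UMIs, held *Mgp* at 359 CPM in wild-type, above the *Crabp1*-positive cells, so how much of their *Mgp* was their own was not tested.

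Ratios of either knockout over wild-type followed gene length. The file headers name different software versions, 4 for wild-type and 7.1.0 for both knockouts, and this difference cannot be told apart from genotype. In *Crabp1*-positive cells the median log2 ratio was −0.20 for genes spanning under 10 kb and 2.63 for genes over 300 kb when *Mgp*-KO was set over wild-type, and −0.35 and 2.94 for *Pd*-KO. In other *Pdgfra*-positive cells the medians for genes over 300 kb were 2.56 and 2.41. Between the knockouts, which share a version, the medians ran from −0.13 to 0.32 in *Crabp1*-positive and from −0.21 to 0.22 in other cells. The excess of long genes was thus found in both kinds of cell, and the levels of *Hmcn1* and *Slit2*, which span 431 and 325 kb, differ between wild-type and knockouts in the same direction.

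**Figure D5:**
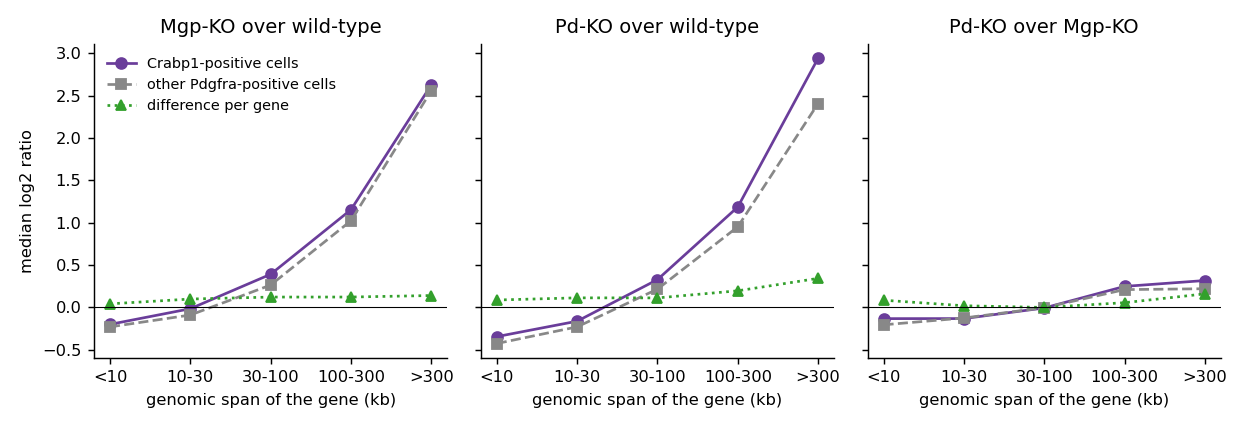
Median log2 ratio by genomic span of the gene, with *Mgp*-KO and *Pd*-KO each set over wild-type and then *Pd*-KO over *Mgp*-KO, in *Crabp1*-positive cells (circles), other *Pdgfra*-positive cells (squares), and as the difference between them for each gene (triangles). The first panels reach 2.63 and 2.94 for genes over 300 kb in *Crabp1*-positive cells, and in the last those cells stay between −0.13 and 0.32.

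Of 4602 genes tested in *Crabp1*-positive cells, 715 (15.5%) were at least 1 on the log2 scale higher in *Mgp*-KO than in wild-type and 67 (1.46%) lower. For *Pd*-KO they were 443 (13.3%) and 154 (4.63%) of 3329. The 10 highest genes in both were *Naaladl2*, *Magi2*, *Pde7b*, *Hs3st5*, *Cacna1c*, *Tafa1*, *Fbxl17*, *St6galnac3*, *Gpc6* and *Prickle2*, all spanning over 300 kb. The lowest included *Mgp*, *Apoe*, *Fabp4*, *Car3*, *Apoc1* and *Glycam1*. Of the 214 *Car3* UMIs in wild-type 186 came from 1 cell, and *Car3* stood at 113 CPM with and 15.1 CPM without it, against 4.23 and 0 in *Mgp*-KO and *Pd*-KO. *Apoe*, a lipid carrier, stood at 3938, 580 and 32.4 CPM in *Crabp1*-positive cells of wild-type, *Mgp*-KO and *Pd*-KO, while other cells stood at 7208, 2371 and 755 CPM and free RNA at 6936, 2080 and 449 CPM. The free RNA of each library held this transcript in the same order, and its part in the level was not tested.

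The ratio in *Crabp1*-positive cells minus the ratio in other cells sets aside what both share. The make-up of the other cells differed between libraries, however. Cells with at least 3 *Pi16* UMIs, gated as above, numbered 1722, 3694 and 3302 of 7702, 9099 and 6374 *Pdgfra*-positive cells in wild-type, *Mgp*-KO and *Pd*-KO. A difference can thus include such a shift of cell classes, and its part was not tested. On this difference 46 (1%) genes were at least 1 higher and 73 (1.59%) at least 1 lower for *Mgp*-KO over wild-type, and 146 (4.39%) and 107 (3.21%) for *Pd*-KO over wild-type. With the median of all genes set to 0 the latter were 109 and 128. *Acta2* had one of the highest differences, 1.88 (1.74 to 2.02) and 2.17 (1.94 to 2.41). It stood at 763, 634 and 554 CPM in *Crabp1*-positive cells of wild-type, *Mgp*-KO and *Pd*-KO, at 230, 51.9 and 37.1 in other cells and at 527, 259 and 148 in free RNA. Its log2 ratios over wild-type were −0.27 and −0.46 in the group and −2.15 and −2.63 in other cells. *Tagln* had differences of 1.44 and 2.32, at 367, 192 and 282 CPM beside 178, 34.5 and 27.5, and its *Mgp*-KO log2 ratio within the group was −0.93 (−1.16 to −0.71). *Mylk*, the myosin light chain kinase, stood at 90.3, 115 and 262 CPM beside 41.0, 14.5 and 16.0. *Col15a1*, a basement membrane zone collagen, stood at 737, 612 and 1030 CPM beside 541, 178 and 307. *Nrgn* (1.80 and 2.91), *Tpm2*, *Pakap*, *Cbfa2t3* and *Crabp1*, a gene of the rule, were also among the 10 highest.

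At the other end were *Ly6a*, *Ly6c1*, *Cxcl1*, C3, *Gpx3*, *Ccl2*, *Apod*, the agouti gene, *Car3* and *Igfbp5*. *Apod* and *Car3* rest on 1 wild-type cell each. *Apod*, with 349 of 550 wild-type UMIs in 1 cell, stood at 290 CPM with and 106 CPM without it, against 91.4 and 77.7 CPM, and its differences went from −2.00 and −2.01 to −0.55 and −0.57. For *Mgp*-KO that of *Car3* went from −1.91 to 0.97, and that of *Cxcl1*, with 167 of 340 wild-type UMIs in 1 cell, from −2.16 to −1.20. *Car3*, *Cxcl1* and *Ccl2* had no UMI in *Crabp1*-positive cells of *Pd*-KO, and with 3 UMIs there their differences for *Pd*-KO were −0.54, −1.57 and −0.94. Dissociation stress genes were lower for *Pd*-KO over wild-type in 11 of 17 cases, with a median of −1.21 in the group and −1.68 in other cells, and for *Mgp*-KO in 2 of 17, with medians of −0.40 and 0.13. Their part in these differences was not tested. *Ly6a*, which encodes the progenitor surface protein Sca-1, stood at 320, 57.6 and 25.9 CPM in *Crabp1*-positive cells and at 1826, 2337 and 2513 CPM in other cells (differences −2.82, interval −3.18 to −2.46, and −4.00, interval −4.98 to −3.03). *Ly6a* was thus low in the group in all 3 libraries and lowest in the knockouts, whereas other cells were not lower. Free RNA held it at 698, 1664 and 1137 CPM. *Ly6c1* stood at 92.4, 16.9 and 9.72 CPM in the group.

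*Pd*-KO over *Mgp*-KO, the comparison within 1 software version, had 36 (1.27%) genes at least 1 higher and 72 (2.53%) at least 1 lower of 2845. *Hmcn1* had a log2 ratio of 0.27 (0.08 to 0.46), *Slit2* of 0.21 (0.04 to 0.38), *Postn* of 0.22 (0.14 to 0.30) and *Lrrc15* of 0.34 (−0.11 to 0.76). In other *Pdgfra*-positive cells *Hmcn1*, *Slit2* and *Lrrc15* stood at −1.74, −0.93 and −1.24. The 3 markers were therefore near equal between the knockouts in *Crabp1*-positive cells and lower in *Pd*-KO over all other *Pdgfra*-positive cells. In the rest of the cluster that held most of the group, *Hmcn1* stood at 781 and 785 CPM in *Mgp*-KO and *Pd*-KO. *Slit2* stood there at 941 and 939 CPM and *Lrrc15* at 144 and 147 CPM. That cluster made up 5.54% of *Pdgfra*-positive cells in *Mgp*-KO and 2.78% in *Pd*-KO, and the part of this shift was not tested. Of 15 collagens tested none passed 1 in either direction, with *Col1a1* at 0.25 and *Col3a1* at 0.21, beside 0.93 and 0.69 in other cells. Outside the stress genes, the lists held few genes past 1. *Robo2* (1.37) was 1 of 7 Slit and Robo genes tested and higher in *Pd*-KO, and 1 gene each of the Wnt, IGF and hormone receptor lists was also higher. Of 9 BMP genes 3 were lower, *Id1* (−1.39) among them, but none passed 1 in either direction on the difference from other cells. Of 9 IGF genes 2 were lower, with *Igfbp3* at −4.00. Of 7 preadipocyte and 4 adipocyte genes 2 each were lower, with *Fabp4* (−2.12) in both lists. *Fabp4* was also the only gene of the endothelial list tested. Lower too was 1 gene each of the TGFb, matricellular and transcription factor lists. The ratio in the group minus that in other cells was at least 1 higher for 80 (2.81%) and at least 1 lower for 42 (1.48%) genes. Of 17 dissociation stress genes 15 were tested and 7 were lower, with a median of −0.81, and other cells had a median of −1.80.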

How the data were processed

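Gene by barcode counts were deposited by the authors as 3 raw matrices (UMI counts, not normalized) from 10x Chromium 3′ libraries. The submitters' processing notes name Cell Ranger 6.1.1 and build GRCm39, the study's methods an mm10 reference, and the file headers software versions 4 (wild-type) and 7.1.0 (both knockouts). The study's methods give default parameters for Cell Ranger 6.1.1, and whether intronic reads were counted is not stated in the sources used here.

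Sums of UMIs over cells were divided by the total of those cells and given as CPM. Ratios carry a prior count of 0.5 UMI and 95% conditional binomial intervals, levels exact Poisson and shares Clopper-Pearson intervals. A gene was compared where both groups of cells together held at least 100 UMIs, for *Crabp1*-positive over other cells in every library, so low genes could pass through the larger group alone. A zero was read as at most 3 UMIs. Ratios were checked on simulated Poisson counts, which carry the same counting error that the intervals assume. Unevenness between cells was left out of them, so the check does not cover it. No doublet caller was run. Clusters used 2000 variable genes, 30 principal components, 20 neighbours and resolution 0.5 (scanpy 1.11.5, leidenalg 0.10.2), and other values numpy 2.4.6 and scipy 1.17.1 in Python 3.11.15. Gene spans came from a GRCm38 annotation for 99.8% of genes, and 40 rows that repeat a symbol were kept apart by gene ID.

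The cells, the genes of their name, 32 gene lists and alternatives were chosen with earlier results of these data known. Ranked genes were the 15 highest and 15 lowest against other cells, and the 10 highest and 10 lowest for genotype, at 50 CPM or more in a library. Mitochondrial, ribosomal, unnamed, *Xist* and Y-linked genes were left out of the ranks. Some genes are not reported here. Alternatives covered the *Crabp1* minimum, depth, thinning, sex, scaling, cell weighting, gene minimum, comparison cells, counts of 0, single cells and clustering settings.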

Additional observations from a re-analysis of the deposited data

Results flagged for a closer look

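Cells with 2 or more *Crabp1* UMIs were also found outside the group. Kept out by another limit were 111 *Pdgfra*-positive cells in wild-type, 27 in *Mgp*-KO and 11 in *Pd*-KO, which carried *Hmcn1* at 131, 597 and 646 CPM and *Lrrc15* at 52.3, 49.5 and 130 CPM. A further 16, 21 and 5 cells had no *Pdgfra* UMI. Free RNA, in barcodes of 10 to 100 UMIs, held *Crabp1* at 13.1, 12.7 and 2.69 CPM.

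Some genes stood on opposite sides of other *Pdgfra*-positive cells in different libraries, and these differences were not tested. *Mki67*, a proliferation gene, had log2 ratios of −2.06 in wild-type and 3.28 in *Pd*-KO, *Birc5* of −2.01 and 2.60, and *Cenpf* of −2.94 and 1.89. In *Pd*-KO the 23 *Mki67* UMIs came from 3 of 27 cells, 14 of them from 1 cell, and the level was 74.5 CPM with and 30.6 CPM without that cell, beside 7.82 CPM in other cells. *Cenpf* rested on 5 UMIs of 1 cell and *Birc5* on 11 UMIs of 2 cells. *Top2a*, a gene of the same program, was limited by the rule. *Egfl7*, an endothelial gene, had a log2 ratio of 1.22 in *Mgp*-KO and −3.40 in *Pd*-KO, the latter from no UMI and resting on the 0.5 UMI added.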

How the results depend on the processing

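The share of *Crabp1*-positive cells moved with the limits that define them and with the sex of the cells. With *Crabp1* of at least 1 UMI it was 3.47%, 2.35% and 0.847% in wild-type, *Mgp*-KO and *Pd*-KO, −1.11 and −2.62 percentage points from wild-type for the knockouts (−0.279 and −1.11 under the rule). With at least 3 UMIs wild-type stood at 1.22% and *Mgp*-KO at 0.923%, and after thinning to 4000 UMIs *Mgp*-KO at 0.935%. Cells thinned to 2000 UMIs, with 1 *Crabp1* UMI, gave 2.44% in wild-type and differences of −1.02 and −1.94. As a share of all cells wild-type stood at 1.12% and *Mgp*-KO at 0.907%. Female cells gave 3.07%, 1.87% and 1.20%, with differences of −1.21 and −1.87, and male cells 0.550%, 0.264% and 0.0735%, with a difference of −0.477 for *Pd*-KO. Without the *Pi16* and *Gdf10* limits, chosen after seeing the data, wild-type stood at 2.23%, with differences of −0.804 and −1.67. With limits per 10000 UMIs, also chosen after seeing the data, wild-type stood at 1.23% and the difference of *Mgp*-KO from wild-type reversed to 0.00845. The *Pd*-KO share was below wild-type under each of these settings.

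Gene counts followed the minimum of UMIs by construction, since fewer or more genes entered. With at least 30 UMIs, higher and lower genes in *Crabp1*-positive cells were 1518 and 196 for *Mgp*-KO over wild-type, 1500 and 439 for *Pd*-KO over wild-type, and 216 and 288 for *Pd*-KO over *Mgp*-KO, and for the difference from other cells 233 and 207, 490 and 397, and 286 and 267. With at least 300 UMIs they were 188 and 31, 77 and 57, and 3 and 17, and for the difference 10 and 24, 35 and 36, and 26 and 6. With the median of all genes set to 0 in each library, the 592 higher and 694 lower genes became 418 and 855, and the difference for *Pd*-KO over wild-type went from 146 and 107 to 109 and 128. With genes at 0 UMIs set to 3 UMIs, also chosen after seeing the data, 480 of the 694 lower genes were lower, and the difference for *Pd*-KO over wild-type of *Ccl2* moved to −0.94 and that of *Car3* to −0.54. In female cells 386 genes were higher in *Crabp1*-positive than in other cells (chosen after seeing the data), and 41 were lower for *Mgp*-KO over wild-type. In the few male cells the genes higher over wild-type were 15 and 19, and *Pd*-KO over *Mgp*-KO had 7 higher and 13 lower. The cause of these changes was not tested beyond the number of cells and genes. The wild-type cluster with most *Crabp1*-positive cells held 57.6% of them at resolution 1 and 74.6% with 10 neighbours.

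Of the values for single genes under the alternatives, 1345 kept their direction and threshold, 11 kept the direction but not the threshold, and 2 reversed. Both reversals are the *Mgp*-KO difference of *Car3* (−1.91), which was 0.97 without the wild-type cell richest in it and 0.35 without the richest cell of each library, alternatives chosen after seeing the data. Without the richest cell of each library *Apod* for *Pd*-KO moved to −0.90. No paired analysis was possible because each genotype has 1 library. The 27 *Pd*-KO cells set the precision, since 3 UMIs there are 9.72 CPM, against 1.58 in wild-type and 2.54 in *Mgp*-KO.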

Other observations

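A gene of the group that belonged to no gene list and was named after its values were seen is *Apela*, which encodes a peptide ligand of the apelin receptor. Among cells that met the remaining limits, wild-type *Apela* stood at 0.705 CPM with no *Crabp1* UMI, 4.66 with 1, 23.0 with 2, 24.5 with 3 to 7 and 153 with 8 or more. *Mgp*-KO stood at 1.04, 5.78, 50.4, 45.5 and 103 CPM, and *Pd*-KO at 0.228, 0, 12.7, 14.4 and 66.1 CPM. In each library the cells with 8 or more *Crabp1* UMIs held the most *Apela*, whereas *Hmcn1* at 2 UMIs was already near that level or above it. The *Pd*-KO values rest on 8, 11 and 8 cells in the last 3 classes.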
